A study of Mus musculus with 16 samples.

Results

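The response examined here is that of CD4+ T cells without STAT3 to IL-6, measured on 8 of the 16 Affymetrix arrays of the series. The 4 arrays of STAT3-deficient cells cultured with IL-6 (IL-6 alone, or IL-6 and TGFb) were set against the 4 without it (medium, or TGFb alone). Arrays were paired by the presence of TGFb and by replicate number, by their titles, so that every gene had 4 IL-6 differences. The STAT3-deficient cells were labelled CD4 Cre; STAT3floxed, and the 8 wild-type (WT) arrays used for comparison came from cells labelled STAT3floxed. All groups therefore carry the floxed gene, and the WT cells lack the Cre. CD4 Cre deletes in the T cell lineage, so any other cell in a culture keeps its Stat3. Naive mouse CD4+ cells (CD44-, CD62L+) were sorted and stimulated through CD3 and CD28 until day 3. Where a cytokine was added, the protocol gives IL-6 at 10 ug/ml and TGFb at 2.5 ug/ml. Neither age nor the origin of the replicates is given in the labels. On all 16 arrays replicate 1 read as female and replicate 2 as male, by the X-linked transcript Xist and the Y-linked Eif2s3y, so the 2 replicates of each group came from different animals.

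IL-6 binds its receptor chain (Il6ra) together with gp130 (Il6st). The kinases bound to gp130 then activate STAT3, to a lesser degree other STAT proteins, and a branch through SHP2 to the MAP kinase ERK. In T cells the STAT3 branch is known for inducing Socs3, a feedback inhibitor, the cytokine Il21 and, together with TGFb, the Th17 programme with Il17a and Rora. The interferon response, which other STAT proteins drive, includes Irf1 and the guanylate-binding proteins.

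Values are log2 intensities of 1 probe set per gene, and differences are with IL-6 minus without, on the log2 scale. The order of the 4 pairs is kept throughout: without TGFb replicates 1 and 2, then with TGFb replicates 1 and 2. In this order Stat3 itself, on the brightest of its 4 probe sets, read 8.4, 9.13, 8.46 and 10.46 without IL-6 and 8.73, 8.57, 9.01 and 9.56 with it. The 8 WT arrays read 10.22 to 12.18, so the highest STAT3-deficient array, TGFb replicate 2, lay above the lowest WT array. The next brightest probe set read 7.76 to 9.54 in STAT3-deficient and 9.15 to 11.96 in WT cells. On the third, the ranges were 5.78 to 8.33 and 6.41 to 8.21, with STAT3-deficient TGFb replicate 2 (8.33) above every WT array. The dimmest read 6.41 to 6.85 and 6.83 to 7.17. Whether these probe sets lie in the deleted part of the gene is not known here, so they check the labels only as far as that.

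The array of STAT3-deficient cells with TGFb, replicate 1, stood apart from the other 7. It read Il17a at 9.55 against 6.04 to 6.51, the chemokine receptor Ccr6 at 12.38 against 6.66 to 8.71 and Rora at 10.35 against 7.06 to 9.19. Its Stat3 (8.46) and Socs3 (7.72) lay within the range of the other 7. Results that rest on its pair are given with and without it. Xist read 11.91 to 13.21 on the replicate 1 arrays and 6.64 to 7.6 on the replicate 2 arrays, and Eif2s3y read 3.81 to 4.52 and 9.84 to 10.98. As a sign of RNA quality, the 5' probe set of Actb was set against its 3' probe set, and the 5' minus 3' value was -0.44 to -0.2 on STAT3-deficient replicate 1 and -1.71 to -1.22 on replicate 2, where the lowest was IL-6 replicate 2. Sex, this value and any other difference between the replicates cannot be told apart. The cultures read as T cells, with a median of log2 11.55 over 12 T cell markers. The 7 measured markers of mast cells and basophils stayed under log2 8, as did the 2 of gamma delta T cells and the 2 of the CD8 lineage. Of the gamma delta markers, Blk read 7.56 on the array that stood apart, against 5.78 to 6.48 on the other 7. Some genes on marker lists of other cells were higher, among them Ctss (up to 12.62), Ccr7 (12.26), Ighm (11.94), Cd74 (10.51), H2-Ab1 (10.41), Klrd1 (9.92), Epcam (9.22) and Pecam1 (9.16). H2-Ab1 read 8.85 to 10.41 on STAT3-deficient replicate 2 and 6.25 to 7.64 on replicate 1.

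Without STAT3, no gene changed with IL-6 at an adjusted p under 0.05, whereas 433 genes did in WT cells. The fit was limma with the replicate number as a block, over 13007 genes. At an unadjusted p under 0.05 the STAT3-deficient cells had 280 genes higher and 908 lower. The share past the adjusted threshold was 0% in STAT3-deficient and 3.33% in WT cells, where 330 genes rose and 103 fell. That split rested on WT IL-6 replicate 2: without it there were 628 calls, 291 higher and 337 lower. A fit without the block also called 0 genes (578 at the unadjusted threshold), and so did a fit of the STAT3-deficient arrays alone with each pair as a block (1005). Taken apart, IL-6 against medium called 0 genes (457 at the unadjusted threshold) and IL-6 added to TGFb 0 (988). A change of the IL-6 difference by TGFb was called for 0 genes (257).

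This outcome depended on STAT3-deficient TGFb replicate 2. Without that array the same fit called 6 genes over all pairs. Car2, a carbonic anhydrase (change 2.1, adjusted p = 0.0392), and Klrd1, a lectin receptor of NK and activated T cells (1.9, adjusted p = 0.0392), were higher. The lysosomal protease gene Ctsl (-1.22, adjusted p = 0.0392), Cd72 (-1.47, adjusted p = 0.0116), Nebl (-1.66, adjusted p = 0.0392) and Rbm44 (-1.75, adjusted p = 0.0116) were lower. Leaving out its whole pair called Rbm44 alone (-1.83, adjusted p = 0.0376). Without the array, IL-6 added to TGFb called 30 genes, and there the only pair left was that of the array that stood apart. The largest of these was Ifitm3, an interferon-induced membrane protein, at 5.91 (adjusted p = 0.0199), whose differences over the pairs were 1.56, -0.09, 6.34 and -0.97. It was named after its values were seen. A change of the IL-6 difference by TGFb was then called for Car2 (4.91, adjusted p = 0.0295) and Cd72 (-2.95, adjusted p = 0.0187).

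The 4 pairs had little in common across genes unless they shared a replicate number. Over the 13007 genes the differences of the pairs with and without TGFb correlated at 0.32 for replicate 1 and 0.34 for replicate 2. The 2 pairs without TGFb correlated at -0.04 and the 2 pairs with TGFb at -0.1. The remaining combinations gave -0.07 and -0.01. In WT cells the values were 0.41 and 0.66 for pairs of the same TGFb state, 0.26 and 0.1 for the same replicate number, and 0.53 and 0.07 for the rest. These are descriptions across genes, which are not independent replicates. The SD across genes was 0.44, 0.29, 0.54 and 0.53 for the 4 STAT3-deficient pairs, so that the pair without TGFb of replicate 2 moved least. In that pair 29 genes were higher by at least 1 and 93 lower by at least 1, against 401 and 357 in the pair with TGFb of replicate 1.

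Of the 13007 genes, 696 had all 4 differences above 0 (5.35%) and 1467 had all 4 below 0 (11.3%). The excess on the lower side depended on scaling: after a further quantile normalization the counts were 1043 (8.02%) and 1020 (7.84%). The median difference over all genes was -0.04 as deposited and 0.01 after that step. The genes below are described by the pairs in which they moved, and none of them passed the test over all 4 pairs.

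The promoters of 4 of the genes described next are shown. These 4 were chosen by name, not by a rule, among the genes with 4 differences of the same sign, and do not stand for the rest. The binding motifs of STAT and interferon-regulated factors are short enough to look for. The sequences are RefSeq's for GRCm38.p6, the 250 bases before the start, 5′ to 3′ on the gene's strand. Capitals mark TTCNNNGAA, the GAS motif of STAT dimers, or GAAANNGAA, the core of the interferon-stimulated response element (ISRE), on either strand. Ifng lies on the plus strand at chr10:118440796-118441045, Ifit3 on the plus strand at chr19:34583279-34583528, Ccl3 on the minus strand at chr11:83649379-83649628 and Ctsl on the minus strand at chr13:64370521-64370770.
Ifng: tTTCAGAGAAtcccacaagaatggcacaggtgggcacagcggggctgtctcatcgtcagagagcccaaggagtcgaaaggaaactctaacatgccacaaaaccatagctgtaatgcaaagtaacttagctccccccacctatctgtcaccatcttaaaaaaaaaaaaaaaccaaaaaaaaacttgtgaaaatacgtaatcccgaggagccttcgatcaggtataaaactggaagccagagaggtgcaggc
Ifit3: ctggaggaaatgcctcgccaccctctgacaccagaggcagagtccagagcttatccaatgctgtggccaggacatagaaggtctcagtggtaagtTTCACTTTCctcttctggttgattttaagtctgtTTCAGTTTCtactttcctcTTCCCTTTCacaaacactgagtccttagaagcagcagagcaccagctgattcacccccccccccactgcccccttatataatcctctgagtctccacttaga
Ccl3: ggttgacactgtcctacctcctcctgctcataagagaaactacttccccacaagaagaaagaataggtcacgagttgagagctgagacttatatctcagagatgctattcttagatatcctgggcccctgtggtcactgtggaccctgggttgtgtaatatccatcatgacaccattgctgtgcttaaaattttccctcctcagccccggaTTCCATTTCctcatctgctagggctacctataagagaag
Ctsl: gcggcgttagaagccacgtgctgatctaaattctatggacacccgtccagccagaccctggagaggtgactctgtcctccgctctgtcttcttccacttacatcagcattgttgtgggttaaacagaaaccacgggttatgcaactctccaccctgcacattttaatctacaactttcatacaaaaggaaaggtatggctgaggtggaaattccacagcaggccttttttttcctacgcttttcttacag

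Ifng held 1 GAS match and no ISRE match, Ifit3 held 3 ISRE matches, Ccl3 held 1, and Ctsl held neither motif. Of 32851 promoters searched, 7.02% held GAS and 7.13% held ISRE. Among the 13350 promoters of tested genes these shares were 5.9% and 5.87%. The shares count every promoter listed for a gene, whereas the first listed was taken for each named gene. Among the 32 genes named for the smallest p or the largest weakest pair, 24 had a promoter in the table, of which 5 held GAS and 5 held ISRE. The ISRE matches were in Ifit3, Ifit1bl1, Ifi213, Ccl3 and Gpr15. Of the 9 interferon response genes with 4 higher differences, described below, 5 had a promoter to search. Of these 0 held GAS and 1, Ifit3, held ISRE. A match describes letters in the window and is no binding site, and its absence says nothing of the factor.

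Ifng, the cytokine that marks Th1 cells, had the largest smallest difference of any gene with 4 higher pairs. Its levels were 6.15, 9.78, 4.39 and 7.8 without IL-6 and 8.88, 11.13, 9.83 and 10.97 with it. The differences were thus 2.73, 1.35, 5.44 and 3.17, with a mean of 3.17 ± 1.7 (SD over 4 pairs). The levels with and without IL-6 overlapped, since replicate 2 in medium lay above replicate 1 in IL-6. Limma's adjusted p was 0.433. In WT cells the mean difference was -0.57 with an SD of 3.08 over the pairs, and the genotypes did not differ past the threshold (3.74, SE 1.45, adjusted p = 0.207).

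**Figure D1:**
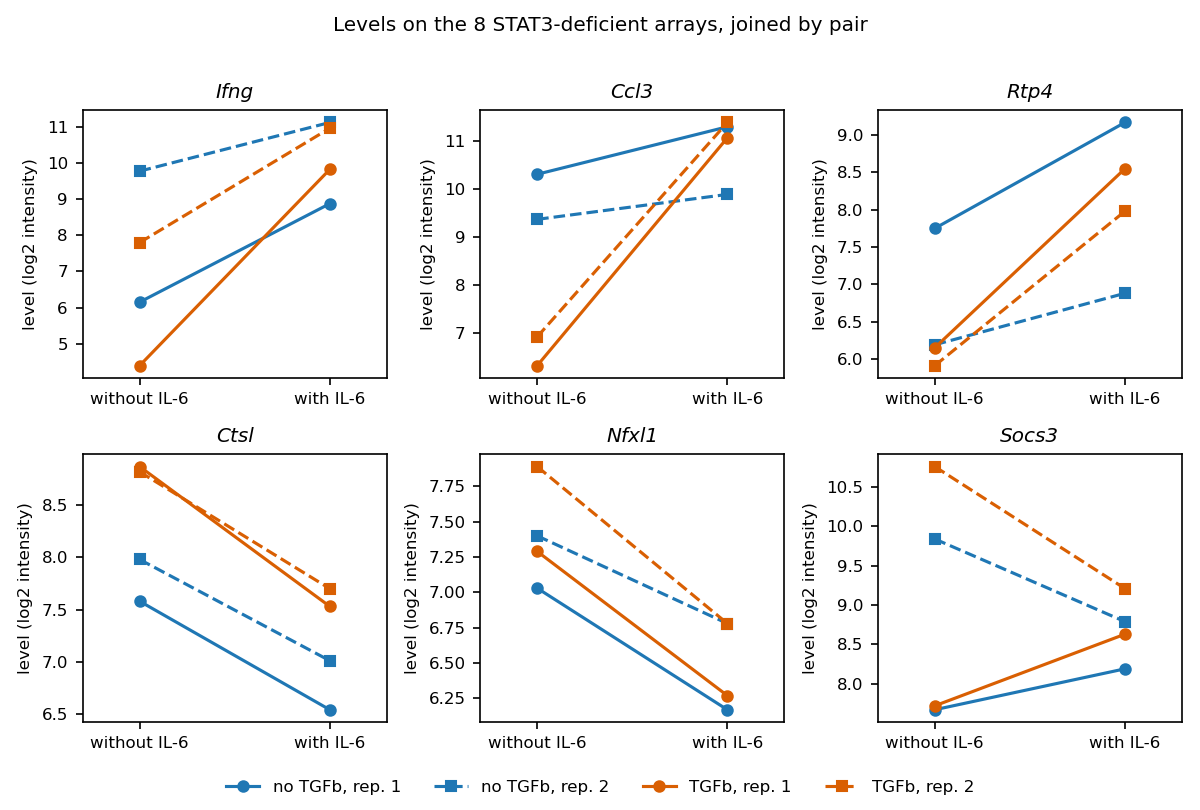
Levels (log2 intensity) of 6 genes on the 8 STAT3-deficient arrays, with a line joining each array without IL-6 to its partner with IL-6; circles and solid lines are replicate 1, squares and dashed lines replicate 2, blue is without and orange with TGFb. All 4 lines go up for Ifng, Ccl3 and Rtp4 and down for Ctsl and Nfxl1, whereas Socs3 goes up in replicate 1 (0.52 and 0.91) and down in replicate 2 (-1.04 and -1.55).

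Ccl3, a chemokine made by activated T cells, had the smallest p of the higher genes. It read 10.31, 9.37, 6.32 and 6.92 without IL-6 and 11.3, 9.89, 11.07 and 11.39 with it. The array levels without IL-6 were low only with TGFb, and with IL-6 added to TGFb they reached those of IL-6 alone. Its differences of 0.99, 0.52, 4.75 and 4.47 averaged 2.68 ± 2.24 (adjusted p = 0.376). The neighbouring chemokine gene Ccl4 read 10.69, 9.7, 9.38 and 8.34 without and 11.22, 10.12, 11.14 and 11.69 with IL-6, with differences of 0.53, 0.42, 1.76 and 3.35 (adjusted p = 0.376). In WT cells Ccl3 and Ccl4 averaged -0.01 (SD 1.67) and -0.12 (SD 1.45).

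Nkg7, a granule membrane protein of NK and cytotoxic T cells, read 9.02, 11.11, 8.61 and 10.63 without IL-6 and 11.75, 11.34, 11.71 and 12.85 with it. All arrays with IL-6 lay above all arrays without, although the pair without TGFb of replicate 2 differed by 0.22 only. The mean difference was 2.07 ± 1.28 (adjusted p = 0.376), against -1.64 in WT cells (SD over the pairs 2.01). With TGFb, WT cells read 6.52 and 6.93 with IL-6 against 10.49 and 9.49 without. In the WT pairs without TGFb, Nkg7 read 8.59 and 10.06 with IL-6 against 8.1 and 10.56. The difference between the genotypes passed the threshold (3.7, SE 0.75, adjusted p = 0.0413) and kept the call in 8 of 28 alternatives. Tbx21, the transcription factor of Th1 cells, differed by 2.56, 0.21, 4.36 and 1.06 (adjusted p = 0.543).

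As a group, 6 of 22 measured Th1 genes had 4 higher differences (27.3%) and 0 had 4 lower, beside 5.35% and 11.3% of all genes. These were Ifng, Tbx21, Ccl3, Ccl4, Nkg7 and Eomes, a relative of Tbx21. The median difference of the list was 0.4, and none of its members passed the adjusted threshold in STAT3-deficient cells. Without the pair with TGFb of replicate 1, 9 had 3 higher differences and 0 had 3 lower, beside 10.9% and 19.4% of all genes. Of 20 cytotoxic effector genes, 4 had all differences above 0 and 0 below: Nkg7, Klrd1, the granzyme gene Gzmk and the granzyme inhibitor Serpinb9, whose pair without TGFb of replicate 2 was 0 when rounded. Klrd1 read 5.91, 6.29, 6.25 and 9.38 without and 6.86, 7.36, 8.82 and 9.92 with IL-6.

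Klrd1 and Eomes are also on the list of NK cell markers. The summed level of the 7 measured NK markers was 9.26 to 10.55 with IL-6 and 8.27 to 10.08 without, and the other 5 stayed under log2 8 on all 8 arrays. The part of such cells in the Th1 and cytotoxic values was not tested. In bulk samples fewer cells of a type and less RNA per cell cannot be told apart.

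Interferon response genes were higher in 3 of the 4 pairs and not in the other. Of 56 measured, 53, 16, 51 and 45 differed above 0 in the 4 pairs (94.6%, 28.6%, 91.1% and 80.4%), beside 37.3%, 45.2%, 46.1% and 52.1% of all genes. The list's medians were 0.86, -0.13, 1.32 and 0.47. In the pair without TGFb of replicate 2, the array with IL-6 had the lowest Actb 5' minus 3' difference (-1.71), and its part in these values was not tested. All 4 differences were above 0 for 9 members (16.1%) and below 0 for 0, beside 5.35% and 11.3% of all genes. Leaving out the pair without TGFb of replicate 2, 40 members were higher in all 3 others (71.4%) and 0 lower, beside 10.9% and 18% of all genes. Leaving out the pair of the array that stood apart, 11 were higher and 1 lower in all 3 others, beside 10.9% and 19.4%. Leaving out the pair without TGFb of replicate 1 gave 10 higher and 0 lower, beside 13% and 15.2%, and leaving out the pair with TGFb of replicate 2 gave 11 and 0, beside 8.15% and 19.5%. In WT cells 1 of the 56 rose and 1 fell past the threshold, where 330 and 103 of all 13007 genes did. The genotype difference passed it for 0, beside 1.89% of all genes. These counts are too small to tell the list from all genes.

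Rtp4, an interferon-induced chaperone of receptors, was the member with the largest mean among the 9. It read 7.75, 6.19, 6.15 and 5.91 without IL-6 and 9.17, 6.88, 8.55 and 7.98 with it, a mean difference of 1.65 ± 0.75 (adjusted p = 0.393). Ifit3, an antiviral protein that binds foreign RNA together with its relatives, differed by 1.42, 0.7, 1.47 and 0.43 from levels of 6.79, 6.15, 5.91 and 6.27 (adjusted p = 0.543). Both were higher in every pair, by a margin that differed several-fold between pairs. Nlrc5, an activator of MHC class I genes, differed by 0.88, 0.01, 2.27 and 0.06 (adjusted p = 0.613). Outside the list, the interferon-inducible genes Ifit1bl1 (0.97, 0.74, 2.23 and 2.22) and Ifi213 (0.52, 0.67, 0.8 and 1.62) and the DNA sensor Cgas (0.52, 0.43, 1.05 and 0.64) also had 4 higher differences.

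Irf1 and Gbp2 showed the pattern of the list as a whole. Gbp2, an interferon-induced GTPase, read 12.85, 12.73, 9.26 and 11.58 without IL-6 and 13.47, 12.11, 13.02 and 13.07 with it. The low value belongs to the array that stood apart, and the difference there was 3.77, against 0.61, -0.62 and 1.49 in the other pairs. The mean of 1.31 (SE 0.47, adjusted p = 0.495) was near the WT mean of 1.39, and the genotype difference was -0.08 with an SE of 0.67 (adjusted p = 0.96). Irf1, a transcription factor of the interferon response, differed by 0.72, -0.32, 2.62 and 0.78 (mean 0.95, SE 0.42, adjusted p = 0.543).

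**Figure D2:**
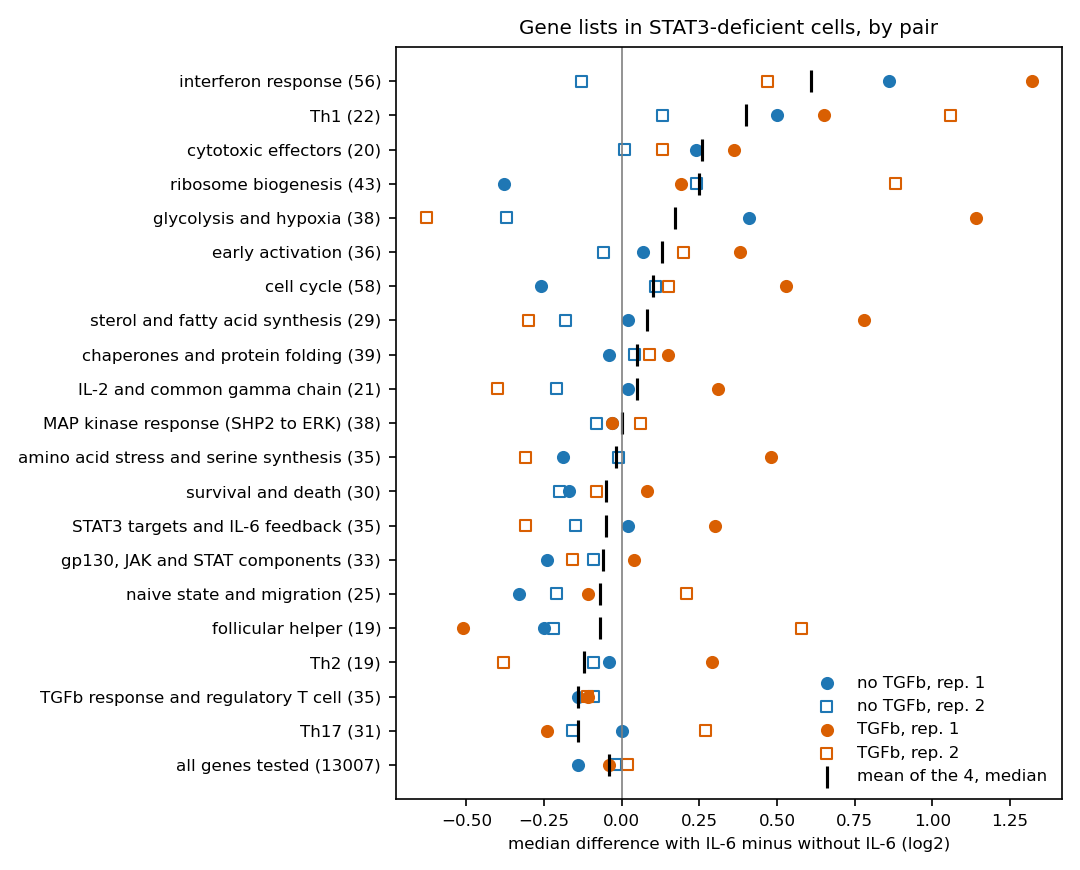
Median IL-6 difference (log2) of 20 gene lists and of all genes tested in each of the 4 pairs of STAT3-deficient arrays, with the number of genes measured in brackets; filled circles are replicate 1, open squares replicate 2, blue is without and orange with TGFb, and the black bar is the median of each gene's mean over the pairs. The interferon list lies highest (0.61), with 1 pair below 0 (-0.13), and the Th1 list is above 0 in all 4 pairs (0.5, 0.13, 0.65 and 1.06).

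The lower genes chosen by their weakest pair differed by less, and varied less between pairs, than most of the higher genes chosen in that way. Ctsl, the lysosomal cysteine protease cathepsin L, read 7.58, 7.98, 8.87 and 8.82 without IL-6 and 6.54, 7.01, 7.53 and 7.7 with it. Its differences were -1.04, -0.97, -1.34 and -1.12, a mean of -1.12 ± 0.16. This was the smallest p of all genes, and it missed the threshold (adjusted p = 0.0762). In WT cells Ctsl went the other way by 0.53 (SE 0.13, adjusted p = 0.0615). The genotype difference of -1.65 (SE 0.19, adjusted p = 0.00794) passed, and 25 of 28 alternatives kept it, the exceptions being the fit with no replicate block and the fits without either pair that lacked TGFb.

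Nfxl1, a zinc finger protein related to NFX1, read 7.03, 7.4, 7.29 and 7.89 without IL-6 and 6.17, 6.78, 6.27 and 6.78 with it, and these did not overlap. Its mean difference was -0.91 ± 0.22 (adjusted p = 0.0762), against 0.11 in WT cells. The genotype difference was -1.02 (SE 0.16, adjusted p = 0.0185) and kept the call in 15 of 27 alternatives. Atat1, the acetyltransferase of alpha-tubulin, differed by -0.78, -0.81, -1.01 and -0.75 (adjusted p = 0.376). 1110032A03Rik had the most even values, at -0.72, -0.65, -0.64 and -0.7, from levels of 6.41 to 7.47 without IL-6 that lie near the minimum of log2 6 for testing.

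The rest of the lower genes named by the smallest p or the largest weakest pair had mean differences between -0.96 and -0.58. Among them were Tubb6, a beta-tubulin, Stx4a, a syntaxin of membrane fusion, Antxr2, an anthrax toxin receptor, Fkbpl, a relative of the FK506-binding proteins, Nsmf, Hspb6, a small heat shock protein, and Dbp, a transcription factor of the circadian clock. Epcam, an adhesion molecule, averaged -0.95 ± 0.24 from levels of 7.82 to 9.22. Epcam is also on the list of stromal and epithelial markers, of which 7 of 9 stayed under log2 8 on all 8 arrays. That list summed to 8.93 to 9.72 with IL-6 and 9.23 to 10.45 without, and the part of such cells was not tested. All of these genes had an adjusted p of 0.376 or more.

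**Figure D3:**
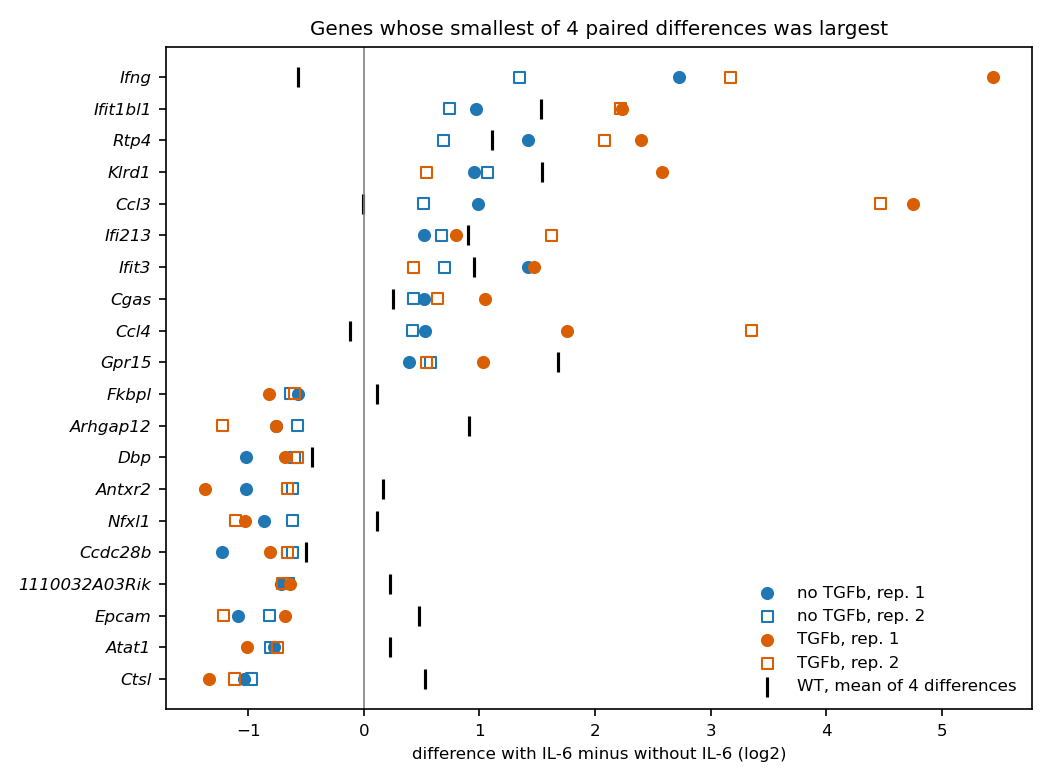
IL-6 differences (log2, with minus without) for the 10 higher and 10 lower genes whose smallest of 4 paired differences in STAT3-deficient cells was largest; filled circles are replicate 1, open squares replicate 2, blue is without and orange with TGFb, and black bars are the mean of the 4 WT pairs. Ctsl spans -1.34 to -0.97 and Ccl3 0.52 to 4.75, and the genes were chosen for these values.

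Among the higher genes with the smallest p, 5 had small differences close to the minimum level. Fat1, 1700120C14Rik, Siglech, Cobl and Cyp2b10 averaged 0.42 to 0.58 from levels without IL-6 that lay under log2 7 on all 4 arrays. Siglech is a marker of plasmacytoid dendritic cells, and it read 5.88 to 6.98 on the 8 arrays. Rab5c, a small GTPase of early endosomes, was brighter and differed by 0.61, 1.08, 1.26 and 0.29 (adjusted p = 0.376).

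The known targets and feedback genes of STAT3 did not move in 1 direction over the pairs. Of 35 measured, 19, 6, 20 and 13 differed above 0 in the 4 pairs (54.3%, 17.1%, 57.1% and 37.1%). The shares of all genes were 37.3%, 45.2%, 46.1% and 52.1%. The list's medians were 0.02, -0.15, 0.3 and -0.31. In all 4 pairs 0 were higher and 2 (5.71%) lower, beside 5.35% and 11.3% of all genes. The 2 were Icos, whose last pair rounds to 0, and Il4ra. The median of the mean differences was -0.05, beside -0.04 over all genes. In WT cells 11 of the 35 rose past the threshold and 0 fell, where 330 and 103 of all 13007 genes did. Socs3 read 7.67, 9.84, 7.72 and 10.76 without IL-6 and 8.19, 8.79, 8.63 and 9.21 with it. It was higher in both replicate 1 pairs (0.52 and 0.91) and lower in both replicate 2 pairs (-1.04 and -1.55), with a mean of -0.29 (SE 0.53). The WT mean was 2.79 (SE 0.53, adjusted p = 0.0212). The genotype difference of -3.08 did not pass (adjusted p = 0.0717).

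Pim1, Socs1 and Stat3 also differed upward in both replicate 1 pairs and downward in both replicate 2 pairs, while the receptor chains did not. The kinase gene Pim1 differed by 0.23, -0.29, 1.32 and -1.06, the inhibitor Socs1 by 0.67, -0.04, 1.49 and -0.4, and Stat3 by 0.33, -0.56, 0.55 and -0.9. The receptor chain Il6st differed by -0.83, -0.55, -0.33 and 0.35 and Il6ra by -0.4, 0.12, -0.51 and 0.32. Of 33 measured receptor, kinase, STAT and inhibitor genes, 3 had 4 lower differences and 0 had 4 higher (9.09% and 0%). The shares of all genes were 11.3% and 5.35%. The 3 were the kinase Jak1 (-0.27, -0.13, -0.87 and -0.02) and the adaptors Shc1 and Grb2. Of 38 genes of the MAP kinase response, 1 (2.63%) was lower in all 4 pairs, Ier2 at -0.42, -0.09, -0.04 and -0.19. The median of that list was 0.

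Bcl3, a regulator of NF-kB, differed by -0.22, -0.2, 0.52 and -0.66 without STAT3 and by 1.61 (SE 0.24, adjusted p = 0.00671) in WT cells. Its genotype difference was -1.75 (SE 0.33, adjusted p = 0.0359), and 9 of 28 alternatives kept that call. Il21 stayed between log2 4.32 and 5.73 on the 8 arrays, with and without IL-6, whereas in WT cells it read 4.46 to 5.86 without IL-6 and 11.54 to 12.39 with it. The fitted WT change was 6.83 (SE 0.36, adjusted p = 6.48e-05) and the genotype difference -7.02 (SE 0.51, adjusted p = 0.00132), which held in all 28 alternatives. Since every array but those of WT cells with IL-6 lay under the minimum of log2 6, these fitted sizes are not exact. Maf, a transcription factor of Il21- and Il10-producing T cells, was high with TGFb whether or not IL-6 was present (11.37 and 10.17 without, 10.72 and 10.75 with) and low without TGFb (4.95 to 5.73). Its IL-6 difference averaged 0.03 (SE 0.34), against 4.21 in WT cells, and the genotype difference of -4.18 (adjusted p = 0.00845) held in 26 of 28 alternatives. It had 5 other probe sets, of which 3 gave an average of opposite sign in STAT3-deficient cells.

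Of 31 Th17 genes, 2 had 4 higher and 3 had 4 lower differences (6.45% and 9.68%), near the 5.35% and 11.3% of all genes, and 12 rose in WT cells, where 330 of all 13007 did. Rora, a nuclear receptor of Th17 cells, read 7.75, 7.5, 10.35 and 9.19 without IL-6 and 7.06, 7.06, 8.29 and 8.47 with it. It was lower in every pair (-0.69, -0.44, -2.06 and -0.72) with a mean of -0.98 (SE 0.25, adjusted p = 0.376), and the largest difference came from the pair of the array that stood apart. In WT cells it rose by 1.51 (SE 0.25, adjusted p = 0.012). The genotype difference was -2.49 (SE 0.36, adjusted p = 0.0148) and held without STAT3-deficient TGFb replicate 1. It was lost in 6 of 28 alternatives, those without STAT3-deficient IL-6 replicate 1, medium replicate 1, medium replicate 2, either pair that lacked TGFb, or WT TGFb replicate 2. Il17a differed by -0.2, 0.04, -3.26 and 0.44, where -3.26 is the pair of the array that stood apart.

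The Th17-list genes higher in all 4 pairs were Etv6, a transcriptional repressor, and Gpr15, a homing receptor for the large intestine. Both also rose past the threshold in WT cells, Gpr15 only in the pairs with TGFb. Etv6 differed by 0.55, 0.13, 0.23 and 0.51 without STAT3 (adjusted p = 0.648) and by 1.23 in WT cells (adjusted p = 0.016). Gpr15 read 5.13, 4.7, 5.7 and 5.58 without IL-6 and 5.52, 5.29, 6.73 and 6.13 with it, so most of its values without STAT3 lay under log2 6. Its mean difference was 0.64 ± 0.27 (adjusted p = 0.376), against 1.68 in WT cells (SE 0.15, adjusted p = 0.000655, SD over the pairs 2.19). With TGFb, WT cells read 9.84 and 9.8 with IL-6 against 6.69 and 5.86 without. In the WT pairs without TGFb it read 5.09 and 4.7 with IL-6 against 5.17 and 5. The genotype difference of -1.04 (SE 0.21, adjusted p = 0.0413) kept the call in 5 of 27 alternatives. Among 35 genes of the TGFb response and of regulatory T cells, 6 had 4 lower differences and 1 had 4 higher (17.1% and 2.86%), beside 11.3% and 5.35% of all genes. Foxp3, the regulator of regulatory T cells, was high with TGFb only, at 7.96 and 9.98 without IL-6 and 7.35 and 8.99 with it, and differed by -0.44, -0.12, -0.61 and -1 (adjusted p = 0.847).

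The metabolic and growth lists differed in which pairs were higher. The 38 genes of glycolysis and hypoxia had medians of 0.41, -0.37, 1.14 and -0.63, positive in replicate 1 and negative in replicate 2. The 43 ribosome biogenesis genes had medians of -0.38, 0.24, 0.19 and 0.88, and 14%, 76.7%, 79.1% and 93% of them differed above 0. In all 4 pairs 1 was higher and 0 lower, and leaving out the pair without TGFb of replicate 1, 26 (60.5%) were higher and 0 lower, beside 13% and 15.2% of all genes. The 58 cell cycle genes had medians of -0.26, 0.11, 0.53 and 0.15. In all 4 pairs 2 (3.45%) were higher and 0 lower, beside 5.35% and 11.3% of all genes. Leaving out the pair without TGFb of replicate 1, 25 (43.1%) were higher and 0 lower. Neither list had this excess when any other pair was left out instead, which keeps the pair without TGFb of replicate 1. Leaving out the pair of the array that stood apart, 3 cell cycle genes (5.17%) were higher and 8 (13.8%) lower. For ribosome biogenesis the counts were 2 (4.65%) and 1 (2.33%), beside 10.9% and 19.4% of all genes. Leaving out the pair without TGFb of replicate 2, 4 cell cycle (6.9%) and 4 ribosome biogenesis genes (9.3%) were higher, beside 10.9%. For the pair with TGFb of replicate 2 these were 3 (5.17%) and 1 (2.33%), beside 8.15%. Of the 29 genes of sterol and fatty acid synthesis, 15, 6, 29 and 7 differed above 0 in the 4 pairs, so that only the pair of the array that stood apart was higher throughout. Eno2, a neuronal-type enolase, was lower in all 4 pairs (-0.57, -0.24, -0.6 and -0.94), and Wars, the tryptophan tRNA ligase, which interferon also induces, was higher in all 4 (0.22, 0.57, 0.54 and 0.8). Their adjusted p were 0.376 and 0.396. Ddit3, a transcription factor of the stress response, was lower at -0.41, -0.54, -0.42 and -1.46 (adjusted p = 0.543).

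The remaining lists are read against the 5.35% of all genes higher and 11.3% lower in all 4 pairs, and none of their members passed the adjusted threshold without STAT3. Among T cell programmes, 0 of 19 Th2 genes were higher and 3 (15.8%) lower in all pairs, and the follicular helper list of 19 had 2 higher and 2 lower (10.5% each). The naive state and migration list of 25 had 0 higher and 3 (12%) lower, and the early activation list of 36 had 4 (11.1%) higher and 1 (2.78%) lower. Of 21 genes of IL-2 and the common gamma chain 1 was higher and 2 (9.52%) lower, and of 30 survival and death genes 1 (3.33%) and 4 (13.3%). Of the genes of sterol and fatty acid synthesis, 0 were higher or lower in all 4. The counts were 1 higher and 2 lower of 35 for amino acid stress and serine synthesis (2.86% and 5.71%), and 4 and 3 of 39 for chaperones (10.3% and 7.69%). The medians of these lists and of the cell cycle list lay between -0.12 and 0.13. Several genes stand on more than 1 list.

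The genes chosen on the WT arrays showed little of the WT response. The 330 genes that rose with IL-6 in WT cells by a median of 1.06 had a median of -0.14 in STAT3-deficient cells (quartiles -0.31 and 0.03). Of them 11 had 4 higher differences (3.33%) and 67 had 4 lower (20.3%), beside 5.35% and 11.3% of all genes. The 103 genes that fell in WT cells by a median of -0.97 had a median of 0.01, with 4 higher and 6 lower in every pair. A STAT3-deficient mean of at least 0.5 times the WT change was reached by 1 of the 330 and 5 of the 103. These lists rest on the WT arrays that chose them. The 433 calls became 256, 132, 184, 197 and 124 without WT IL-6 replicate 1, IL-6 and TGFb replicate 1, TGFb replicate 1, medium replicate 1 and TGFb replicate 2. Without the WT pairs they became 171 and 768 (without TGFb, the latter 420 higher and 348 lower) and 96 and 89 (with TGFb).

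**Figure D4:**
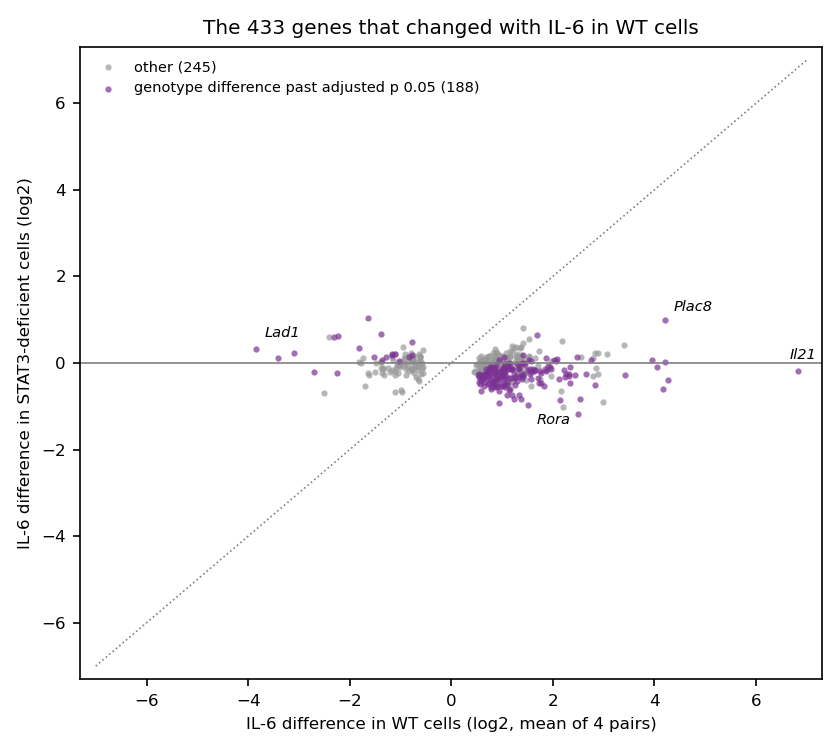
IL-6 difference (log2, mean of 4 pairs) in STAT3-deficient cells on the vertical axis against WT cells on the horizontal axis for the 433 genes called in WT cells, 1 point per gene; purple marks the 188 genes whose difference between genotypes also passed adjusted p 0.05, and the dotted line marks equal differences. The points lie along the horizontal line at 0, as for Il21 (6.83 in WT cells, -0.19 without STAT3), rather than along the dotted line.

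The IL-6 difference itself differed between the genotypes for 246 genes (1.89%), 23 higher and 223 lower without STAT3. Further quantile normalization left 122 genes, 24 higher and 98 lower, and a fit with no replicate block left 46. Of the 223, 168 had also risen in WT cells, and of the 23, 20 had fallen there. The STAT3-deficient medians of these sets were -0.34 and 0.22 against 0.99 and -1.39 in WT cells. The count moved by more than 1.5 times when any of 15 arrays or pairs out of 20 was left out. It was 43, 80, 41, 80, 106 and 33 without STAT3-deficient IL-6 replicate 1, IL-6 and TGFb replicate 1, medium replicate 1, IL-6 replicate 2, IL-6 and TGFb replicate 2 and medium replicate 2. It rose to 447 without STAT3-deficient TGFb replicate 2 (92 higher, 355 lower). Without WT IL-6 replicate 2 the total was 226, but the split became 95 higher and 131 lower. Without WT IL-6 replicate 1, IL-6 and TGFb replicate 1, TGFb replicate 1, medium replicate 1 and TGFb replicate 2 it was 158, 50, 69, 98 and 44. Without the STAT3-deficient pair of the array that stood apart it was 93, and without either STAT3-deficient pair that lacked TGFb it was 2.

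Of the 10 genes with the largest genotype differences, 5 in each direction, 9 had changed past the threshold in WT cells, the exception being Nkg7 (-1.64, adjusted p = 0.139). None had changed past it without STAT3. Lad1, Tnfsf11, Dapl1 and Penk fell with IL-6 in WT cells, and Serpinf1, Serpinb1a, Maf, Selp and Il21 rose there. Serpinb1a read 3.17 to 4.81 on every array outside WT IL-6 replicate 2 (7.88) and the WT arrays with IL-6 and TGFb (9.76 and 11.27). Tnfsf11, the ligand RANKL, read 10.54, 9.62, 9.25 and 9.68 without IL-6 and 10.03, 9.62, 9.79 and 10.15 with it. Its mean difference was 0.12 (SE 0.24), against -3.42 (SE 0.24, adjusted p = 0.000327) in WT cells, and the genotype difference of 3.54 (adjusted p = 0.00536) held in all 28 alternatives. Lad1, an anchoring filament protein, differed by -1.15, -0.17, 1.2 and 1.4 without STAT3, lower in the pairs without TGFb and higher in those with it. Its genotype difference was 4.16 (SE 0.45, adjusted p = 0.0066) and held in 26 of 28 alternatives.

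A small set of WT-responding genes differed in the WT direction in all 4 STAT3-deficient pairs, 11 higher and 6 lower. The higher ones were Plac8, Frmd4b, Acaa1b, Gpr15, Prg4, Hhex, Tox2, Etv6, Cacna1c, Fst and Adam8, and the lower ones Serf1, Zfp827, Dusp14, Myh10, Pdzk1ip1 and Cd83. Plac8, a small cysteine-rich protein of lymphoid and myeloid cells, differed by 1.51, 0.39, 1.77 and 0.33, a mean of 1 ± 0.75, against 4.21 in WT cells. Its genotype difference of -3.2 (SE 0.61, adjusted p = 0.0361) kept the call in 8 of 28 alternatives. Cd83, an activation marker, differed by -1.38, -0.47, -0.75 and -0.18 without STAT3 and by -2.5 in WT cells, and the genotype difference of 1.81 did not pass (adjusted p = 0.126). The 11 are 3.33% of the genes that rose in WT cells and the 6 are 5.83% of those that fell, below the 5.35% and 11.3% of all genes with 4 higher or 4 lower differences.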

How the data were processed

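Expression in 16 samples was measured on Affymetrix arrays. RMA is named in the submitters' processing notes, without version or settings. The authors deposited linear intensity values, 100% of them whole numbers from 6 to 37243, and array medians were 66 to 73. Log2 was taken with no pseudocount. The platform annotation gave 34945 probe sets 1 symbol, 932 several and 9160 none, with 64 control probe sets left out. Each of 18193 genes kept its probe set of highest mean, and 13007 reached log2 6 on at least 2 arrays and were tested.

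Limma 3.58.1 (R 4.3.3) fitted all 16 arrays with 8 group means and the replicate number as a block within genotype (6 residual and 3.77 prior degrees of freedom). The 6 comparisons were tested two-sided with lmFit, contrasts.fit and eBayes, Benjamini-Hochberg adjusted over 13007 genes and called under 0.05. The block was in the fit because the comparison is defined by pairs. The labels do not say what the numbers in the titles stand for, but Xist and Eif2s3y separate them by sex on all 16 arrays, so the block also takes up the difference between sexes. After subtracting group means, arrays of the same number correlated at 0.33 to 0.64 over 6 pairs of STAT3-deficient groups and at 0.11 to 0.61 over 6 of WT groups. The number thus marks a difference that its arrays share. Sex and the Actb value follow the number too, so whether same-numbered arrays came from the same animals cannot be told from this. The fit was tested on simulated data.

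The comparison, the 20 lists and the markers were chosen with earlier results of these data known. Named are a panel of IL-6 and T cell genes, and the 10 genes each way with the smallest p and with the largest weakest pair among those with 4 differences of the same sign. The 5 largest changes each way past the threshold in WT cells and between genotypes were added, with up to 3 members of each list whose 4 differences share a sign. Of the 32 genes named in the first manner, 9 had other probe sets, and 2 of these had one of opposite sign. Alternatives were the block, level minimum, pseudocount, scaling, probe set choice, array weights, an RNA quality covariate and leaving out each array or pair. Plots were made in Python 3.11.15 with matplotlib 3.10.9.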

Additional observations from a re-analysis of the deposited data

Results flagged for a closer look

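Of 84 named genes whose 4 STAT3-deficient differences were checked, 2 had a pair far from the others, and chance alone would give about 1 in 20. Pecam1, an adhesion molecule, differed by -1.19 in the pair with TGFb of replicate 1, and the other 3 lay between -0.4 and -0.33. Ddit3 differed by -1.46 in the pair with TGFb of replicate 2, and the other 3 lay between -0.54 and -0.41.

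The IL-6 difference was unlike between the genotypes, by limma's test of the interaction, for 246 genes. The named ones that were higher without STAT3 were Lad1 (4.16), Nkg7 (3.7), Tnfsf11 (3.54), Dapl1 (3.33) and Penk (2.91). Those that were lower were Il21 (-7.02, fitted from levels under log2 6 on the other arrays), Serpinf1 (-4.77), Serpinb1a (-4.67), Maf (-4.18) and Selp (-4.13). Serpinb1a reached log2 6 only on WT arrays with IL-6, and WT IL-6 replicate 1 read 3.7. The call held least often for Nkg7 (8 of 28 alternatives), Dapl1 (13 of 28) and Serpinb1a (17 of 27).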

How the results depend on the processing

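The STAT3-deficient cells had 0 calls over the pairs under each planned change of block, level minimum, pseudocount, scaling, probe set choice, array weights and RNA quality covariate. Leaving out an array or pair gave 0 to 6 calls over all pairs, 0 to 30 for IL-6 added to TGFb, 0 to 2 for the change by TGFb and 0 for IL-6 against medium. In WT cells the 433 calls became 212 with no replicate block, 68 with WT arrays alone and each pair as a block, 190 with the Actb difference as a covariate, and 89 to 768 when an array or pair was left out. The 246 genotype differences became 46 with no replicate block, 122 after quantile normalization, 45 with the Actb covariate, and 2 to 447 when an array or pair was left out. Of the named genes, no called change reversed under these alternatives. Of 695 recomputed genotype differences of named genes, 297 missed the threshold, and of 418 WT values 41 did, all with the same sign. The cause of these shifts was not tested. With 2 arrays a group, precision is limited by their number, and values near log2 6 lie close to background.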
